A study of Mus musculus with 30 samples.

Results

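Vehicle and the lowest dose of cannabidiol (CBD), 0.325 µM, were compared after 6 h of exposure in mHypoA-2/12 cells. This is a line of immortalized hypothalamic cells from the adult mouse, grown in medium with serum. For the exposure the study lists medium with CBD and 0.1% DMSO, or with 0.1% DMSO alone as vehicle, and names no serum. The groups compared are 6 of the 30 samples of the series: the 3 libraries labelled CBD0.325_6h (A13, A14 and A15) and the 3 labelled CTR_6h (A1, A2 and A3). The other samples received 0.75 µM, 1.5 µM or 3 µM CBD for 6 h, or vehicle or any of the 4 doses for 24 h. All groups share the cell line, its transforming viral T antigen and the 3′ mRNA sequencing protocol, which reads the poly(A) end of transcripts. The labels do not say whether the 3 libraries of a group came from separate cultures, so p-values measure a spread between libraries that may be technical. For the gene tests at 6 h this spread was estimated over all 15 libraries of 6 h, those of the other doses included.

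CBD is a non-intoxicating plant cannabinoid that binds many proteins weakly, among them ion channels, serotonin and adenosine receptors and nuclear receptors. Cells under stress use a few well-known circuits. Stress kinases block translation initiation through eIF2α and raise the transcription factor ATF4. The proteins p53 and NRF2 drive genes of damage control and of defence against oxidants, and type I interferon signals drive antiviral genes. Early response genes such as Junb and Dusp1 follow growth factors, serum and handling within minutes and are switched off again soon after.

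Reads counted on genes numbered 1839621, 1919498 and 3574833 in vehicle libraries A1, A2 and A3, and 2604452, 2693650 and 2312145 in A13, A14 and A15. Vehicle libraries A1 and A2 were the closest pair, with a mean chi-square of 2.23 per gene, which is still above the sampling noise of 1. Library A3 differed from A1 and A2 by 12 and 10.8, and the 3 CBD libraries differed from each other by 5.81 to 9.51; this measure grows with depth, and A3 was the deepest. Shares of reads outside genes were 20% ± 1.89 (SD, n = 3) in vehicle and 19.4% ± 1.50 in CBD, and A3 (17.9%) and A13 (17.7%) were the lowest (exact two-sided permutation test, p = 0.5; the smallest p that 3 against 3 allows is 0.1). By the same exact permutation test, the groups were not separated in the shares of ambiguous reads (p = 0.7), mitochondrial genes (p = 1), ribosomal protein genes (p = 0.3) or the 10 most abundant genes (p = 0.2). Of the defining neuronal markers, Dcx had no read in the 6 libraries, and Rbfox3, Syp and Snap25 averaged 0.751, 0.134 and 0.0915 CPM (gene counts scaled to a common library total, TMM-normalized) and were thus near 0. Other neuronal markers were present, with Nefm at 58.9, Tubb3 at 48.5, Eno2 at 34.6, Nefl at 23.3, Stmn2 at 14.6, Map2 at 13.9, Uchl1 at 11.3 and Syt1 at 3.24 CPM. Col1a1, Acta2 and Col1a2, markers of mesenchymal cells, averaged 2091, 2034 and 1420 CPM and made up most of the sum of their list. Its other members were lower: Col3a1 at 327, Pdgfrb at 141, Thy1 at 55.2, Tagln at 47.6, Pdgfra at 25.6, Dcn at 12.1 and Lum at 2.12 CPM. The 10 mesenchymal markers summed to 5304 to 6535 CPM in vehicle and 5861 to 6651 CPM in CBD libraries, and the 12 neuronal markers to 197 to 234 CPM and 196 to 206 CPM. In these bulk samples fewer cells of a type and less RNA per cell cannot be told apart.

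In all, 32 of the 12012 genes tested differed between CBD 0.325 µM and vehicle at a false discovery rate (FDR) under 0.1, or 0.266% of them. Of these, 17 were higher with CBD (0.142%) and 15 were lower (0.125%), and 1037 genes had an unadjusted p under 0.05 (8.63%). These calls need the 15 libraries of 6 h in the fit: with only the 6 compared, 0 genes were called. The genes with the smallest p were Uqcrc1, a core subunit of respiratory complex III, which rose, and Ppp1r15a (GADD34), the phosphatase subunit that restores translation after eIF2α phosphorylation, which fell. Among the genes that fell were members of several stress circuits: Ndrg1, Hmox1, Sqstm1, Bbc3 and Gadd45g, the early response genes Junb and Dusp1, and the interferon-stimulated genes Isg15, Mndal, Oasl2 and Ifit1. The genes that rose had more varied roles, among them Rpl28 of the ribosome, the matrix protease Mmp3, the interleukin 1 antagonist Il1rn, the cytokine Mif, the lysosomal enzyme Hexa and the progenitor filament gene Nes. In 31 of the 32 genes the 2 groups of libraries did not overlap, and the exception was ENSMUSG00002076161. Over all genes tested, 5.54% lay wholly higher with CBD and 5.14% wholly lower.

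**Figure D1:**
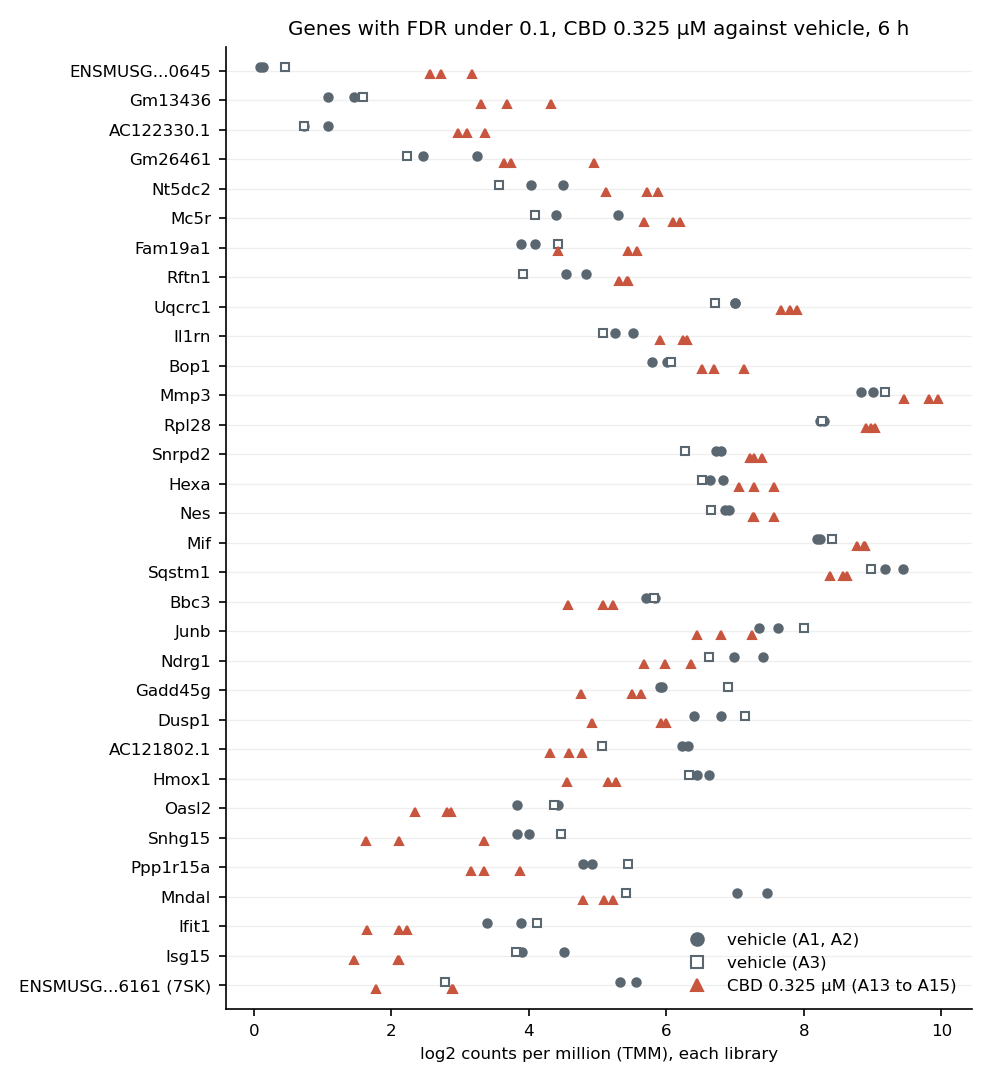
Level of each of the 32 genes with FDR under 0.1 in each of the 6 libraries, on the x axis as log2 TMM-normalized CPM, with genes ordered by log2 fold change. Grey circles are vehicle A1 and A2, open squares vehicle A3 and red triangles CBD 0.325 µM. The groups are separated in 31 genes, and in ENSMUSG00002076161 the A3 square lies among the triangles.

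**Figure D2:**
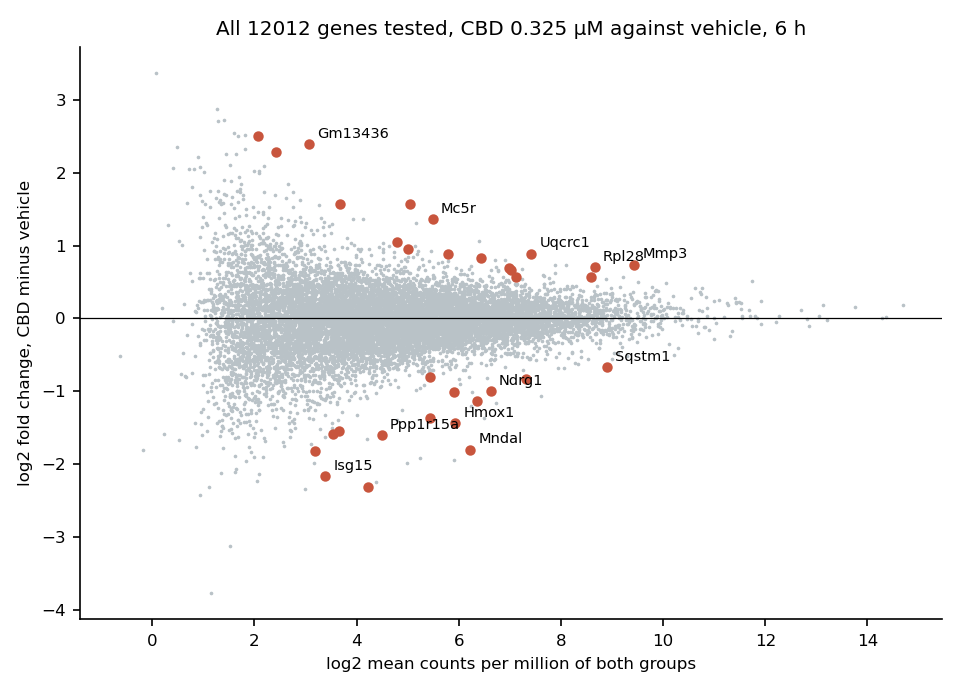
Log2 fold change, CBD 0.325 µM minus vehicle, against log2 mean CPM of both groups for the 12012 genes tested at 6 h, 1 point a gene, with the 32 called genes in red. The scatter widens toward low levels, and the called genes lie at its upper and lower edges.

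Ppp1r15a had 27.5, 30.1 and 43.4 CPM in vehicle libraries A1, A2 and A3 and 10.2, 8.93 and 14.6 CPM in CBD libraries A13, A14 and A15. Every CBD library lay below every vehicle library, with a log2 fold change of -1.60 ± 0.29 (SE; FDR = 0.0273). Of the 23 measured genes of the integrated stress response, the pathway that Ppp1r15a closes, it was the only one called. Their median log2 fold change was -0.35, against -0.02 over all genes tested, and 21 of the 23 were below 0. Of the 12012 genes tested, 6292 were below 0. The growth factor-like Gdf15 (-1.33 ± 0.37, FDR = 0.182), the cystine transporter Slc7a11 (-1.28 ± 0.37, FDR = 0.202), the p53-induced sestrin Sesn2 (-1.09 ± 0.32, FDR = 0.218) and Atf4 itself (-0.47 ± 0.15, FDR = 0.262) were lower on average but did not pass. This list, like those of p53 targets, interferon-stimulated genes and the matrix, follows themes that the study chose on these samples, so its direction is not independent evidence.

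Hmox1, which encodes the haem-degrading enzyme haem oxygenase 1, had 87.0, 98.7 and 80.7 CPM in vehicle and 23.5, 35.7 and 38.7 CPM in CBD libraries. The lowest vehicle library was thus above the highest CBD library by a wide margin (log2 fold change -1.44 ± 0.27, FDR = 0.0304). Sqstm1, the autophagy receptor p62, had 577, 693 and 502 CPM in vehicle and 380, 396 and 332 CPM in CBD (-0.67 ± 0.15, FDR = 0.0567). These were the genes called, 2 of 25, in the list of NRF2 targets, against 0.125% of all genes tested that were called lower. The median of the list was -0.11 (-0.02 without A3, -0.07 without A14 and -0.26 without A15). Of its members 15 were below 0 and 10 above, against 6292 and 5720 of the 12012 genes tested. The glutathione transferase Gstm1, also a member, was higher on average (0.58 ± 0.16, FDR = 0.171). Sqstm1 was also the only call among the 20 ubiquitin and autophagy receptor genes. The autophagy kinase gene Ulk1 (0.63 ± 0.22, FDR = 0.313) did not pass.

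Ndrg1, a growth-arrest gene that responds to hypoxia and iron, had 127, 170 and 98.6 CPM in vehicle and 82.3, 62.9 and 51.2 CPM in CBD libraries. Its highest CBD library, A13, came close to its lowest vehicle library, A3, without overlap (log2 fold change -1 ± 0.19, FDR = 0.0273). No other of the 21 measured hypoxia-inducible genes was called, and their median was -0.08 (0.06 without A3). The lipid droplet protein gene Plin2 stood at -0.66 ± 0.18 (FDR = 0.155) and the glycolytic regulator Pfkfb4 at 1.29 ± 0.39 (FDR = 0.222).

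Bbc3 encodes PUMA, a p53-induced protein that promotes apoptosis. It had 52.3, 57.0 and 56.6 CPM in vehicle and 37.2, 33.8 and 23.7 CPM in CBD libraries, with a log2 fold change of -0.81 ± 0.19 (FDR = 0.0982). The vehicle libraries lay close together and A15 was the lowest of the CBD libraries. Bbc3 was the only one called of 26 measured genes of p53 and its targets, of which 24 were below 0. The median was -0.41 (-0.62 without A13 and -0.34 without A14). In 12 of the 26 all CBD libraries lay below all vehicle libraries, against 5.14% of all genes tested. The same held for 12 of 29 early response genes, 9 of 23 interferon-stimulated genes and 8 of 23 integrated stress response genes. Among the members that did not pass were Plk2, a polo-like kinase (-0.98 ± 0.24, FDR = 0.115), Mdm2, the ubiquitin ligase that degrades p53 (-0.64 ± 0.16, FDR = 0.136), and Cdkn1a, the cell cycle inhibitor p21 (-0.47 ± 0.13, FDR = 0.159). Cdkn1a had 633, 631 and 573 CPM in vehicle and 475, 447 and 405 CPM in CBD libraries. None of the 24 cell cycle genes tested by edgeR was called, 1 had an unadjusted p under 0.05, and their median was 0.04 (-0.17 without A13).

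Early response genes were lower with CBD on average, with 27 of 29 below 0 and a median log2 fold change of -0.66. Only Junb and Dusp1 were called, where 0.125% of all genes tested were called lower. Junb, a subunit of the AP-1 transcription factor, had 198, 162 and 256 CPM in vehicle and 151, 87.0 and 111 CPM in CBD libraries (-0.83 ± 0.17, FDR = 0.0396). Dusp1, a phosphatase that switches off MAP kinases, had 111, 84.4 and 141 CPM in vehicle and 60.7, 30.3 and 63.7 CPM in CBD (-1.13 ± 0.25, FDR = 0.0965). For both genes A3 was the highest vehicle library and A14 the lowest CBD library. The same held for Egr1, with 267, 237 and 475 CPM in vehicle and 257, 164 and 195 CPM in CBD, where the groups overlapped (-0.68 ± 0.20, FDR = 0.218). Other members that did not pass were Klf6 (-0.56 ± 0.14, FDR = 0.109), Nr4a1 (-1.25 ± 0.32, FDR = 0.130), Sgk1 (-0.61 ± 0.17, FDR = 0.186), Egr2 (-1.99 ± 0.56, FDR = 0.193) and Fos (-0.72 ± 0.21, FDR = 0.208). Without A3 the median of the list was -0.36, with 24 of 29 members below 0, and without any other single library it lay between -0.55 and -0.76.

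Gadd45g, a stress-induced growth-arrest gene outside these lists, had 60.0, 61.2 and 119 CPM in vehicle and 27, 45.4 and 49.5 CPM in CBD libraries. Here too A3 was far above A1 and A2 (log2 fold change -1.01 ± 0.24, FDR = 0.0986; without A3 -0.57, FDR = 0.303). Hes1, a repressor at the end of the Notch pathway, had 105, 95.5 and 187 CPM in vehicle and 72.5, 22.9 and 56.8 CPM in CBD and did not pass (-1.37 ± 0.30, FDR = 0.119). No gene of the 11 Notch pathway and Id genes was called, and 3 had an unadjusted p under 0.05.

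Interferon-stimulated genes gave 4 of the 15 genes that fell. These were 4 of the 23 members tested, against 0.125% of all genes tested. Without A2 or without A15, 0 genes of this list were called. Isg15, a ubiquitin-like modifier, had 14.9, 22.7 and 14 CPM in vehicle and 2.74, 4.27 and 4.30 CPM in CBD libraries, which were 27, 43 and 51 reads against 7, 11 and 10 reads. All CBD libraries were well below all vehicle libraries (log2 fold change -2.16 ± 0.41, FDR = 0.0273). Ifit1, which binds foreign RNA, had 10.5, 14.8 and 17.3 CPM and 3.13, 4.66 and 4.30 CPM (-1.82 ± 0.43, FDR = 0.0965). Oasl2, of the oligoadenylate synthetase family, had 21.5, 14.2 and 20.6 CPM and 5.09, 6.99 and 7.31 CPM (-1.54 ± 0.36, FDR = 0.0965). These levels are low, and the 3 calls rest on 7 to 75 reads a library.

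Mndal, a gene of the interferon-inducible p200 family, showed another pattern: it had 131, 177 and 42.6 CPM in vehicle and 37.2, 34.2 and 27.5 CPM in CBD libraries. Vehicle A3 lay far below A1 and A2 and just above the CBD libraries (log2 fold change -1.80 ± 0.36, FDR = 0.0965; without A3 -2.21, FDR = 4.8e-10). Oasl1 had 49.6, 45.9 and 8.51 CPM in vehicle and 5.48, 9.71 and 6.02 CPM in CBD, with A3 inside the CBD range, and was not called (-2.24 ± 0.54, FDR = 0.152). Over the 23 interferon-stimulated genes tested, of 30 listed, 19 were below 0 and the median was -0.58; with single libraries left out it lay between -0.41 and -0.72. Genes of the p200 and Oas families have close paralogs, so the reads assigned to each may be incomplete.

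ENSMUSG00002076161, which the study lists under the symbol Rn7sk, is the 7SK RNA that holds the elongation kinase P-TEFb inactive; it is a polymerase III transcript, which the oligo(dT) protocol is not designed to capture. It had 40.2, 47.0 and 6.86 CPM in vehicle (73, 89 and 25 reads) and 7.44, 7.38 and 3.44 CPM in CBD libraries (19, 19 and 8 reads). A3 lay inside the CBD range, the only overlap among the called genes (log2 fold change -2.31 ± 0.51, FDR = 0.0965; without A3 -2.81, FDR = 2.67e-05). Its protein partners Hexim1 (0.10 ± 0.22), Larp7 (0.09 ± 0.17) and Mepce (0.06 ± 0.18) and the kinase gene Cdk9 (-1.07 ± 0.49, FDR = 0.556) did not pass. The long non-coding RNA AC121802.1, like Mndal, was far lower in A3 than in A1 and A2, with 79.3, 74.9 and 33.5 CPM in vehicle and 23.9, 27.2 and 19.8 CPM in CBD (-1.37 ± 0.26, FDR = 0.0273). Snhg15, a host transcript of small nucleolar RNA, had 16, 14.2 and 22.2 CPM and 10.2, 3.11 and 4.30 CPM (-1.59 ± 0.37, FDR = 0.0965).

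Promoter sequence is shown for the called genes that led each direction and for Isg15, the leading interferon-stimulated gene, since members of stress circuits share short control elements. The lines give the 250 bases before the annotated start, 5′ to 3′ on the gene's strand, from the RefSeq promoter table (GRCm38.p6): Ppp1r15a at chr7:45526269-45526518, minus strand, Isg15 at chr4:156200819-156201068, minus strand, Uqcrc1 at chr9:108936398-108936647, plus strand, and Rpl28 at chr7:4792715-4792964, plus strand. Capitals mark matches, on either strand, to any of 9 motifs: the CRE TGACGTCA, AP-1 TGANTCA, the antioxidant element TGACNNNGC, the hypoxia core ACGTG, the E-box CACGTG (which contains the hypoxia core), the ATF4 composite TGATGNAA, the heat shock element GAANNTTC, the TATA box TATAAA and, added after the values were seen, the interferon response core (GAAA, any 2 bases, GAAA).
Ppp1r15a: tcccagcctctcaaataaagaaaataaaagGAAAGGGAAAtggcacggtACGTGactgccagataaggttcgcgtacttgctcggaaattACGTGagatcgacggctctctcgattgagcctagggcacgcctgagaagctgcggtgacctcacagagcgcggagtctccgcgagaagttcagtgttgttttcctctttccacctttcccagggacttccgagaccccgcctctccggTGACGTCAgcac
Isg15: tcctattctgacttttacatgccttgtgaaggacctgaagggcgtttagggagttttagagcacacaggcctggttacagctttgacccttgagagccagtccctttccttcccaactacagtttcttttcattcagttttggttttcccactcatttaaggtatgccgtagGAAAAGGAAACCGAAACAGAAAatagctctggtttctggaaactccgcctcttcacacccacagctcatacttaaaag
Uqcrc1: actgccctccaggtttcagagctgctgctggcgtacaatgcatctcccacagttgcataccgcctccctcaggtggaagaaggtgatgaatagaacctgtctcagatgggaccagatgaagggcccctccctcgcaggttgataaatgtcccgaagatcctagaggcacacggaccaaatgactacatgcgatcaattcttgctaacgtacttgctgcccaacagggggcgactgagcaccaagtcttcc
Rpl28: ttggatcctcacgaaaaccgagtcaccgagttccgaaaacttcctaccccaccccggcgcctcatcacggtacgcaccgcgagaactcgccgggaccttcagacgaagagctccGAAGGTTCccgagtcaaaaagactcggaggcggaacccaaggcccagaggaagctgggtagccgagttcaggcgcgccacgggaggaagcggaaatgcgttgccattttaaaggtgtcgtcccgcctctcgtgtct

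The promoter of Ppp1r15a held a CRE that began 12 bases before the start, 2 hypoxia cores and 1 interferon response core. In Isg15, 3 overlapping interferon response cores began 78, 72 and 66 bases before the start. Rpl28 held 1 heat shock element, and no motif was matched in Uqcrc1, nor in the windows of Junb and Sqstm1. Of the 32851 promoters of the table, 1.55% held the CRE, 16.6% the hypoxia core, 2.98% the interferon response core and 6.69% the heat shock element in these 250 bases. The interferon response core was in 4 of the 10 protein-coding genes that fell and have an entry (Ifit1, Isg15, Mndal and Ppp1r15a) and in none of the 10 that rose. The hypoxia core was in 5 and 0 of them, the E-box in 3 and 0 (6.02% of all), the antioxidant element in 3 and 1 (10.2%), the CRE in 2 and 1, the TATA box in 2 and 1 (12.4%), AP-1 in 1 and 2 (6.75%), the ATF4 composite in 1 and 0 (3.45%), and the heat shock element in 0 and 2. A gene with several entries counted if any of them held the motif, while the shares of all promoters are over single entries, so the rates are not fully alike. These matches are letters in a window and no binding was measured.

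Uqcrc1 led the genes that rose. It had 128, 128 and 104 CPM in vehicle and 223, 239 and 203 CPM in CBD libraries, with A3 the lowest and A14 the highest (log2 fold change 0.89 ± 0.16, FDR = 0.0273). It was the only one called of the 76 nuclear-encoded respiratory chain genes tested, whose median was 0.11 with 53 above 0 (0.06 with 46 above 0 without A13). Over all 12012 genes tested, 5720 were above 0. Rpl28 had 301, 312 and 306 CPM in vehicle and 502, 480 and 525 CPM in CBD, a tight pair of groups (0.71 ± 0.14, FDR = 0.0298). It was the only one called of 80 ribosomal protein genes, with a median of 0.07 and 48 members above 0 (0.19 without A3 and -0.01 without A13). Ribosomal protein genes have many processed copies, so some of their reads may be lost or misplaced. Bop1, a factor of ribosome assembly, had 55.6, 64.4 and 67.3 CPM and 91.3, 140 and 103 CPM (0.83 ± 0.18, FDR = 0.0567), and the splicing protein gene Snrpd2 had 105, 111 and 76.9 CPM and 168, 148 and 155 CPM (0.69 ± 0.16, FDR = 0.0965).

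Mmp3, the matrix protease stromelysin 1, had 454, 513 and 579 CPM in vehicle and 700, 899 and 990 CPM in CBD libraries (log2 fold change 0.74 ± 0.15, FDR = 0.0304). All CBD libraries were above all vehicle libraries. It was the only one called of the 19 measured matrix proteases and inhibitors, which had a median of 0.25 (0.15 without A2), with 12 above 0 and 7 below. Timp1, an inhibitor of these proteases, had 701, 730 and 812 CPM in vehicle and 1001, 900 and 1122 CPM in CBD and did not pass (0.43 ± 0.13, FDR = 0.237). No structural matrix gene of 30 was called by edgeR, 9 had an unadjusted p under 0.05 (7 higher and 2 lower), and the median was 0.20. Without A15 that median was 0.07, with 19 of 30 above 0 in place of 24. Col11a1, a fibrillar collagen, had 77.1, 61.7 and 28 CPM in vehicle and 92.4, 119 and 127 CPM in CBD (1.06 ± 0.31, FDR = 0.256). Of the TGF-β ligands, receptors and Smads, which act on the matrix, none of 18 was called and 1 had an unadjusted p under 0.05: the transducer Smad3, with 84.3, 74.9 and 103 CPM in vehicle and 54.5, 55.5 and 58.1 CPM in CBD (-0.65 ± 0.17, FDR = 0.152).

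Secreted immune factors were among the genes that rose. Il1rn, the antagonist of the interleukin 1 receptor, had 45.7, 38.0 and 33.8 CPM in vehicle and 59.9, 78.8 and 75.3 CPM in CBD libraries (0.88 ± 0.19, FDR = 0.0567). Mif, a cytokine that inhibits macrophage migration, had 292, 300 and 340 CPM and 439, 473 and 470 CPM (0.57 ± 0.13, FDR = 0.0965). For both, the lowest CBD library was above the highest vehicle library. Hexa, a subunit of the lysosomal enzyme that degrades gangliosides, had 113, 99.7 and 91.2 CPM and 155, 133 and 190 CPM (0.66 ± 0.15, FDR = 0.0965), and was the only one called of 20 lysosomal genes, whose median was -0.04. The proton pump subunit gene Tcirg1 (0.54 ± 0.15, FDR = 0.170) did not pass.

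Nes, whose intermediate filament nestin marks neural progenitors, had 120, 115 and 100 CPM in vehicle and 154, 155 and 189 CPM in CBD (0.57 ± 0.14, FDR = 0.0965). It was the only one called of the 4 neural progenitor markers tested. Vim (-0.24 ± 0.14), Pax6 (0.29 ± 0.43) and Sox2 (0.03 ± 0.35) did not pass. The 5 progenitor markers listed summed to 2461 to 3536 CPM in vehicle and 2120 to 2830 CPM in CBD libraries. The raft protein gene Rftn1 had 28.6, 23.2 and 15.1 CPM and 39.6, 43.5 and 43.0 CPM (0.95 ± 0.22, FDR = 0.0965). Nt5dc2, of the 5′-nucleotidase domain family, had 22.6, 16.4 and 11.8 CPM and 34.9, 59.0 and 52.5 CPM (1.57 ± 0.32, FDR = 0.0459). In Nes, Rftn1 and Nt5dc2 A3 was the lowest library of the 6. Fam19a1, which encodes a secreted chemokine-like protein, had 17.1, 14.8 and 21.4 CPM and 21.5, 43.5 and 47.7 CPM, so that A13 barely cleared A3 (1.05 ± 0.25, FDR = 0.0995). Besides Mc5r, the remaining transcripts that rose were low and non-coding or unnamed. The pseudogene Gm13436 had 5, 4 and 11 reads in vehicle and 51, 33 and 23 reads in CBD (2.39 ± 0.46, FDR = 0.0299). ENSMUSG00000120645 had 2, 2 and 5 reads and 15, 17 and 21 reads, AC122330.1 had 3, 4 and 6 reads and 20, 22 and 24 reads, and Gm26461 had 10, 18 and 17 reads and 32, 79 and 31 reads. Pseudogenes share sequence with their parents, and their reads may belong to another gene.

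Mc5r, a melanocortin receptor better known from exocrine glands and skin, had 39.1, 21.1 and 17 CPM in vehicle and 50.9, 68.7 and 73.1 CPM in CBD libraries (1.36 ± 0.31, FDR = 0.0995). Among 14 receptors and peptides of feeding, it and the insulin receptor gene Insr (-0.37 ± 0.38) were the only ones abundant enough to test. Npy, Pomc, Cartpt, Mc3r and Mc4r had no read in the 15 libraries of 6 h, where 3 reads would be 0.839 to 1.63 CPM in the 6 libraries compared; these limits cover counting error only. Of 15 proposed protein targets of CBD, 4 were abundant enough to test and none was called by edgeR, 1 with an unadjusted p under 0.05. Cnr1, Cnr2, Gpr55, Htr1a, Trpv1 and Trpm8 had no read at 6 h, and the 5 others that were not tested had 8 to 42 reads over the 15 libraries, most for the channel gene Trpv2. Faah, the enzyme that degrades the endocannabinoid anandamide, had 10, 13 and 10 reads in vehicle and 1, 1 and 6 reads in CBD (log2 fold change -2.11 ± 0.79, FDR = 0.391). Pparg (-1.11 ± 0.55), Fabp5 (0.41 ± 0.25) and Vdac1 (-0.03 ± 0.13) did not pass either.

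**Figure D3:**
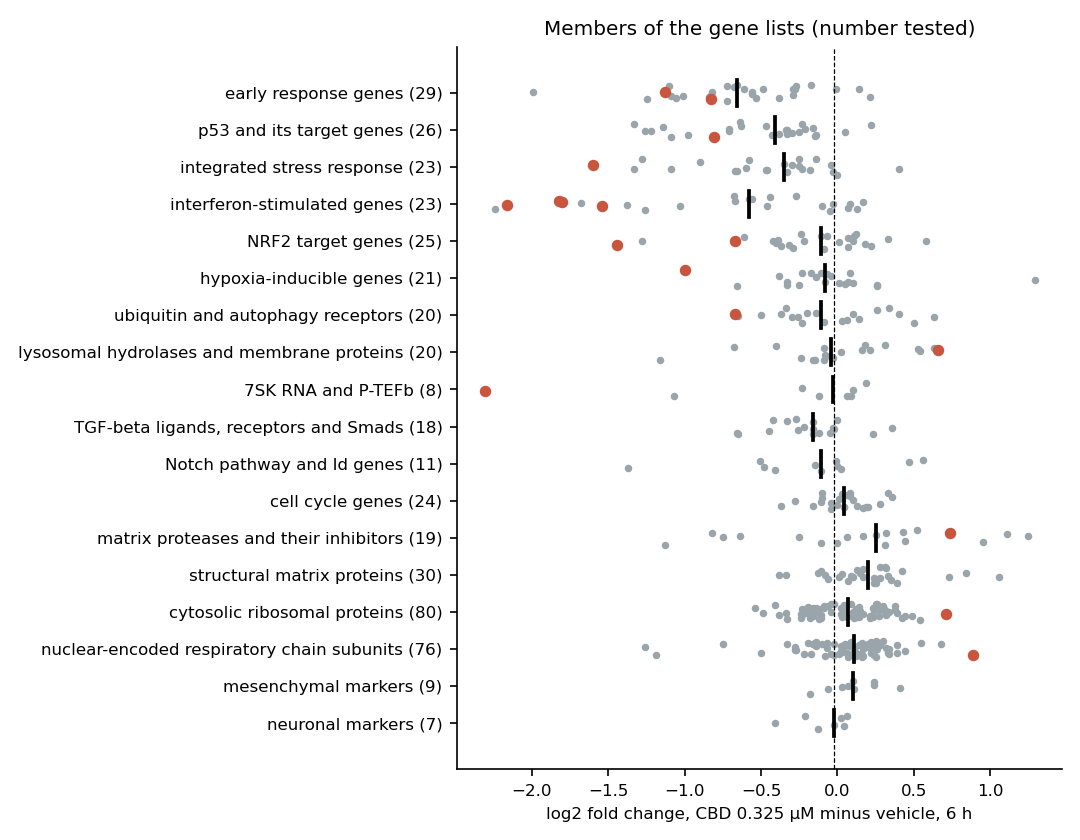
Log2 fold change, CBD 0.325 µM minus vehicle at 6 h, of each tested member of the 18 gene lists named on the y axis (1 point a gene, red where FDR was under 0.1), with the median of each list as a black bar and the median of all genes tested, -0.02, as a dashed line. Medians of early response genes (-0.66), interferon-stimulated genes (-0.58) and p53 targets (-0.41) lie left of the line, and those of matrix proteases (0.25) and structural matrix proteins (0.20) right of it; the other 8 lists, of at most 8 tested members each, are not drawn.

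Just outside the threshold were Tbc1d8b (1.56 ± 0.38, FDR = 0.103), Dda1 (0.77 ± 0.19, FDR = 0.106), Gm44855 (1.37 ± 0.34, FDR = 0.106), Klf6 (-0.56 ± 0.14, FDR = 0.109) and Plk2 (-0.98 ± 0.24, FDR = 0.115). Just inside it were Fam19a1, Mc5r and Gm26461 (each FDR = 0.0995). With only the 6 libraries in the fit, edgeR called 0 genes, and 568 had an unadjusted p under 0.05. The calls also depended on single libraries. With each of the 6 left out in turn, between 3 and 112 genes were called: 37 without A1, 3 without A2, 112 without A3, 64 without A13, 17 without A14 and 5 without A15. Uqcrc1 and Ppp1r15a were called in all 6 of these fits. Gm13436 lost its call without A2, and 7 genes (Ndrg1, Hmox1, Sqstm1, Rpl28, Isg15, AC121802.1 and ENSMUSG00000120645) lost it without A2 or A15. Junb lost it without A14 or A15, Il1rn and Nt5dc2 without A2, A14 or A15, Mmp3 without A1, A2 or A15, and Hexa without A2, A3 or A15. Bbc3, Bop1, Mif and Fam19a1 were called only without A3 or A13, and Mc5r, Rftn1 and Snhg15 only without A1 or A13. Nes, Dusp1, Gm26461 and AC122330.1 passed only without A13, Gadd45g and Ifit1 only without A1, and Mndal and ENSMUSG00002076161 only without A3, while Oasl2 and Snrpd2 passed in none of the 6. No called gene changed direction in any of them. This could hardly have come out otherwise, since the 2 groups did not overlap in 31 of the 32 genes. A3 was the vehicle library nearest to the mean of the CBD libraries in 13 of the 32 genes, A1 in 11 and A2 in 8.

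**Figure D4:**
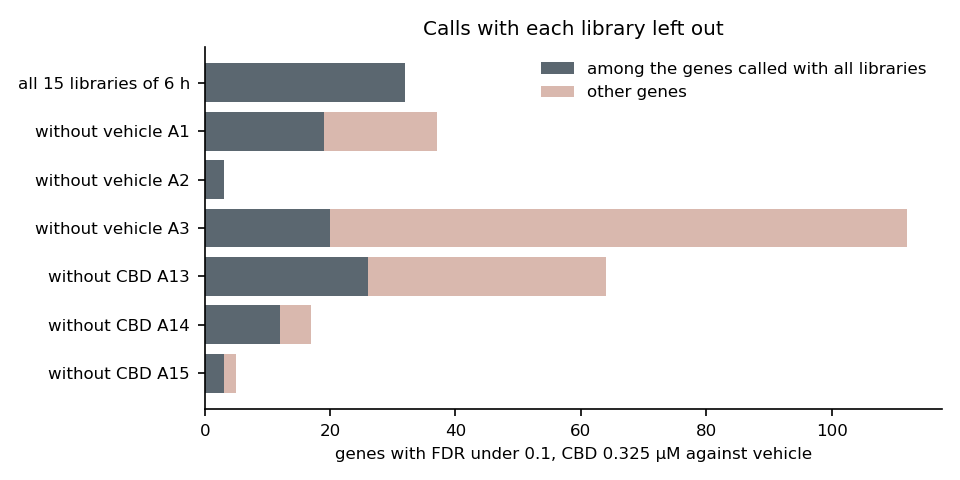
Number of genes with FDR under 0.1 for CBD 0.325 µM against vehicle at 6 h (x axis) with all 15 libraries and with each of the 6 compared libraries left out; the dark part counts genes that are among the 32. The bars run from 3 genes without A2 to 112 without A3, and 20 of those 112 are among the 32.

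Whether any change was particular to the lowest dose was asked by setting 0.325 µM against the mean of 0.75 µM, 1.5 µM and 3 µM at 6 h, a contrast in which vehicle takes no part. By edgeR, 0 of 12012 genes passed (0%), 454 had an unadjusted p under 0.05, and DESeq2 called 0 as well. Ppp1r13b, which encodes a p53-binding protein that favours apoptosis, had the smallest p: it averaged 19.4 ± 2.25 CPM (SD, n = 3) at 0.325 µM and 11.5 ± 1.09, 9.65 ± 1.51 and 10 ± 1.4 CPM at 0.75, 1.5 and 3 µM (log2 difference 0.90 ± 0.22, FDR = 1). Uqcrc1 came next, with 221 ± 18.4 CPM at 0.325 µM and 169 ± 31.0, 146 ± 26 and 158 ± 20.4 CPM at the higher doses. Its log2 difference was 0.49 ± 0.12, with an unadjusted 95% interval of 0.24 to 0.74 (FDR = 1). Uqcrc1 was picked for its small p here and against vehicle, so the interval is not free of that choice.

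Values at the 4 doses of 6 h are given side by side for some of the called genes. Against the same 3 vehicle libraries, Ppp1r15a had log2 fold changes of -1.60 ± 0.29, -1.52 ± 0.28, -1.43 ± 0.28 and -1.74 ± 0.29 from the lowest to the highest dose, and Sqstm1 had -0.67, -0.63, -0.66 and -0.67. Hmox1 had -1.44 ± 0.27, -0.46 ± 0.26, -1.32 ± 0.27 and -1.53 ± 0.27, with 0.75 µM nearest to vehicle. Ifit1 had -1.82 ± 0.43, -0.31 ± 0.38, -1.29 ± 0.41 and -1.41 ± 0.41, the same shape. Bbc3 had -0.81 ± 0.19, -0.72 ± 0.19, -0.54 ± 0.19 and -0.3 ± 0.19, smallest at the highest dose. Of the genes that rose, Mmp3 had 0.74 ± 0.15, 1.02 ± 0.15, 0.89 ± 0.15 and 0.64 ± 0.15. Rpl28 had 0.71 ± 0.14, 0.48 ± 0.14, 0.52 ± 0.14 and 0.39 ± 0.14, and Il1rn had 0.88 ± 0.19, 0.69 ± 0.19, 0.92 ± 0.19 and 0.8 ± 0.19. Isg15 averaged 3.77 ± 0.892 CPM at 0.325 µM and 10.5 ± 3.56, 6.42 ± 2.52 and 6.32 ± 1.29 CPM at the higher doses. Its difference from their mean was -0.98 ± 0.37, with an interval of -1.73 to -0.23 and FDR = 1. For Ppp1r15a that difference was -0.04, and the interval of -0.56 to 0.47 bounds it without showing that the doses act alike. Both genes were picked by their change against vehicle in these same 0.325 µM libraries, so neither interval is free of that choice. The 4 comparisons share their vehicle libraries, so they are not separate pieces of evidence.

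The change at 6 h was also set against that of the same dose at 24 h, where 3 vehicle libraries (A28, A29 and A30) and 3 CBD libraries (A25, A26 and A27) share no sample with those of 6 h. Of 12790 genes tested over all 30 libraries, 2 differed between the times (0.0156%), both early response genes, and 784 had an unadjusted p under 0.05. On the scale of the 30 libraries, Dusp1 had 112, 85.4 and 142 CPM in vehicle and 61.6, 30.8 and 64.7 CPM in CBD at 6 h. At 24 h it had 48.2, 40.4 and 40.4 CPM in vehicle and 96.2, 97.8 and 67.1 CPM in CBD. The groups were separated at both times but in opposite order, with a log2 difference of -2.14 ± 0.35 (FDR = 0.0121). Ier2, an early response regulator, had 27.8, 30.4 and 46.1 CPM in vehicle and 20.7, 13.4 and 25.8 CPM in CBD at 6 h, and 35.2, 27.5 and 28.3 CPM and 51.6, 46.8 and 46.5 CPM at 24 h (-1.5 ± 0.3, FDR = 0.0649). Neither gene passed at 24 h alone (Dusp1 1.01 ± 0.24, FDR = 0.317, and Ier2 0.67 ± 0.20, FDR = 0.587). Ier2 did not pass in the fit of 6 h either (-0.84 ± 0.26, FDR = 0.235).

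Next in this contrast, and not called, were Gadd45g (-1.33 ± 0.28, FDR = 0.117), Ndrg1 (-1.07 ± 0.23, FDR = 0.118) and Isg15 (-2.46 ± 0.55, FDR = 0.118). Ppp1r15a differed by -1.47 ± 0.45 (FDR = 0.524): its vehicle mean was 34.0 CPM at 6 h and 12.7 CPM at 24 h, while its CBD means were 11.4 and 11.7 CPM. Il1rn was higher with CBD at both times, with means of 39.6 and 72.5 CPM at 6 h and 77.2 and 150 CPM at 24 h (0.96 ± 0.16 at 24 h, FDR = 0.00533). Hmox1 means were 89.8 and 33.2 CPM at 6 h and 45.4 and 32.3 CPM at 24 h. The 24 h vehicle mean was nearer to the 6 h CBD mean than to the 6 h vehicle mean in 11 of the 15 genes that fell (73.3%) and 11 of the 17 that rose (64.7%). Among all genes tested it was so for 56.9% of those that were lower and 55.7% of those that were higher. The called genes were chosen by the gap between the 6 h groups, which alone can place another vehicle group nearer to CBD. The shares over all genes carry no such choice, so they are not a like baseline and no conclusion is drawn. Time in culture and library preparation cannot be told apart in the vehicle groups.

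**Figure D5:**
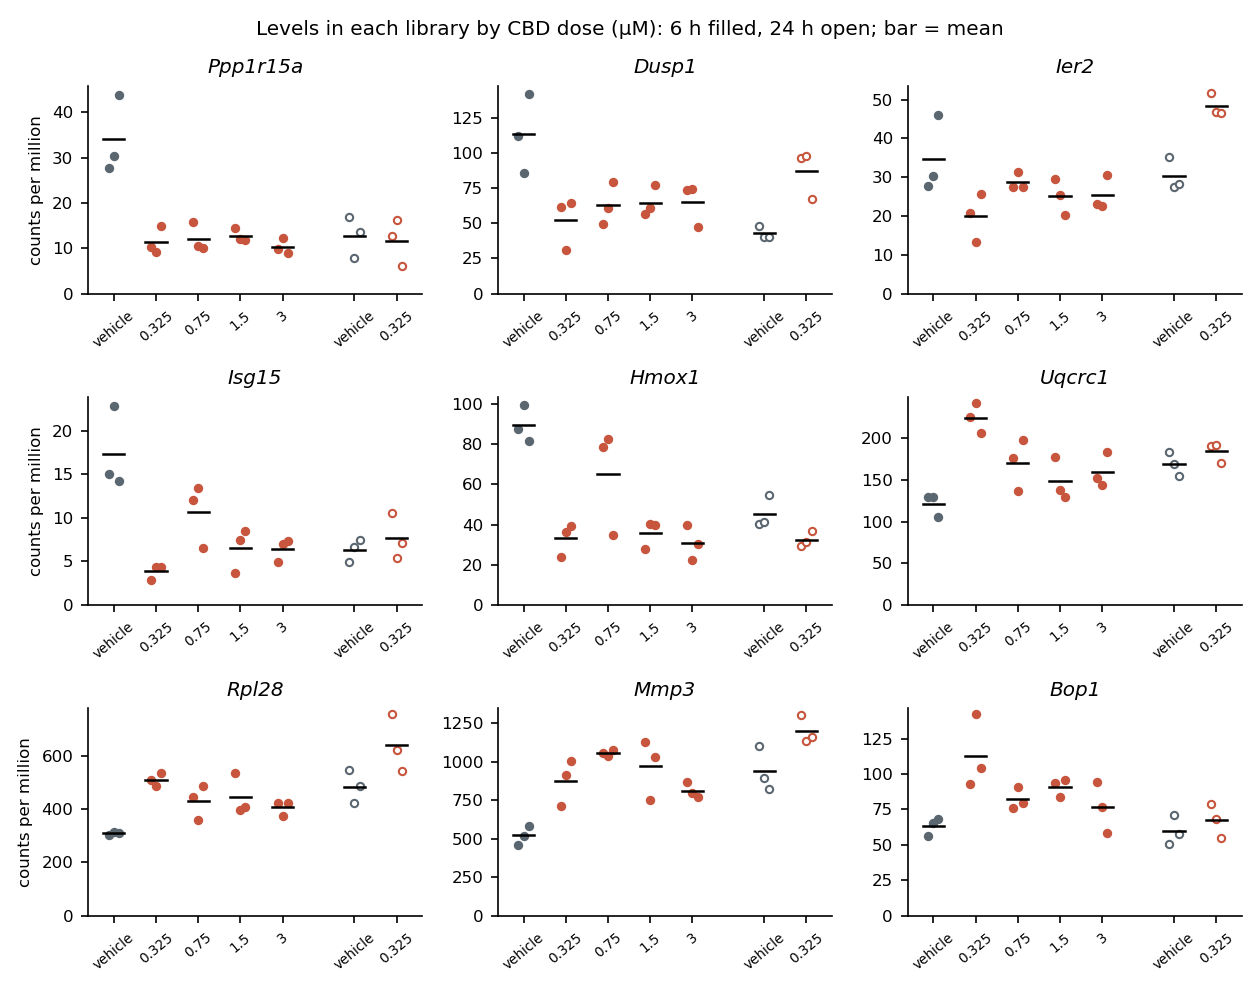
Level of 9 genes in each library of vehicle and 4 CBD doses at 6 h (filled points) and of vehicle and 0.325 µM at 24 h (open points), in CPM on the scale of all 30 libraries, with means as bars; grey is vehicle and red is CBD. For Ppp1r15a the 3 vehicle libraries of 6 h lie above all others shown, with a mean of 34 CPM against 12.7 CPM in vehicle at 24 h, and Dusp1 and Ier2 reverse their order between the times.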

How the data were processed

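The authors sequenced 3′ mRNA libraries (QuantSeq) of mHypoA-2/12 cells, trimmed reads with Flexbar, mapped them with STAR 2.7.5c to GRCm39 and counted them per Ensembl gene with HTSeq 1.99.2; versions are from the submitters' processing notes. The deposited values are raw counts per gene, 1 table a library, with no normalization; 51948 of 56941 identifiers were matched to a symbol (GENCODE M21). Summary lines (reads outside genes, ambiguous reads) served only for shares. The strand setting of the counting is not given in the sources used here, and no molecular identifiers were used, so limits from reads cover counting error only.

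Counts were fitted in R 4.3.3 with edgeR 4.0.16 (quasi-likelihood F-test, robust, TMM, filterByExpr, Benjamini-Hochberg over all genes tested, FDR under 0.1) on the 15 libraries of 6 h, or all 30 for the difference between times, with a mean per group. CPM values are TMM-normalized, and SE is the log2 fold change over the root of F. The 6 libraries compared hold 1839621 to 3574833 reads on genes, and all 30 hold 1839621 to 4420675. The chi-square between libraries used genes with at least 20 reads in a pair. Alternatives included DESeq2 1.42.0, other scalings, filters and covariates, and each library left out. The steps were tested on simulated data.

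Named are all called genes, the members of 26 gene lists that were called or had the smallest p, genes the study names and the 5 genes nearest outside the threshold; Egr1 and Fos were added after their values were seen. The lists and rules were chosen with earlier results of these data known. The viability, caspase and qPCR measurements of the study were not analysed here.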

Additional observations from a re-analysis of the deposited data

Results flagged for a closer look

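Dusp1 and Ier2 responded differently to CBD 0.325 µM at the 2 times, by a test of the difference itself. The change from vehicle to CBD at 6 h minus that at 24 h was -2.14 on the log2 scale for Dusp1 (FDR = 0.0121) and -1.5 for Ier2 (FDR = 0.0649). At 6 h alone Dusp1 was called and Ier2 was not, and neither was called at 24 h alone. In both genes the 3 CBD libraries lay below the 3 vehicle libraries at 6 h and above them at 24 h. For Dusp1 the vehicle mean was 113 CPM at 6 h and 43 CPM at 24 h, and the CBD means were 52.4 and 87 CPM. Dusp1 kept its call with any single library of 6 h left out, with FDR between 0.00272 and 0.0431, but lost it without vehicle library A29 or A30 of 24 h. Ier2 lost its call with the share of outside-gene reads as a covariate, without A3 or A14 of 6 h, or without A25, A26, A29 or A30 of 24 h.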

How the results depend on the processing

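For CBD 0.325 µM against vehicle at 6 h, the 32 calls became 71 with DESeq2 (39 higher and 32 lower, all 32 among them), 131 with no filter on low counts, 14 with at least 10 counts in every library, 302 with the outside-gene read share as covariate, 92 with log2 gene reads as covariate, and 0 with only the 6 libraries. They were 32 with RLE size factors, 35 without mitochondrial genes and, in a fit chosen after seeing the data, 24 without the robust option. With 1 library left out they ranged from 3 to 112. Against the other 3 doses, 0 genes passed under every setting run. For the difference between 6 h and 24 h, the 2 calls became 9 with DESeq2, 20 with no filter and 4 with the reads covariate, and 0 to 9 with 1 library left out. With the outside-gene covariate they were Dusp1 and Isg15, without Ier2. Of 473 alternative values for the called genes, 311 kept their call, 162 lost it and 0 reversed. In 31 of the 32 genes the groups did not overlap, so leaving out 1 library could hardly reverse them. The cause of the lost and added calls was not tested. The fit on 6 holds fewer libraries and also tested 11039 genes in place of 12012.

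Genes near 0 changed sign with 1 library left out: Insr ranged from -0.55 to 0.05, Vdac1 from -0.16 to 0.05, Larp7 from -0.04 to 0.28, Mepce from -0.06 to 0.2 and Hexim1 from -0.03 to 0.27. Differences in library shares moved by less than 1 pooled SD of the 2 groups, but some near 0 changed sign: that of mitochondrial genes, -0.047 percentage points, was 0.207 without A14 and 0.117 over TMM library sizes. Floors of 3 reads, 0.839 to 1.63 CPM, limit what can be said of undetected genes. No paired analysis was possible because the labels give no replicate numbers shared between groups.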
